A study of Mus musculus with 16 samples.

Results

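*Ngfr*, which encodes the p75 neurotrophin receptor (p75NTR), and *Sort1*, which encodes its co-receptor sortilin, were followed in cultured mouse keratinocytes. Both genes were picked from the deposited count table by their symbols, and they are 2 of its 14474 genes. They were chosen for how their levels moved between the cell lines, so their levels and fold changes are given as a description, with no test. The MKα3- line was immortalized from mouse keratinocytes without the integrin α3 subunit. Human α3 was put into these same cells to give the MKα3+ line, which therefore shares the null background of the MKα3- line. Integrin α3β1 is a receptor for laminin-332 (LN332), a protein of the epidermal basement membrane. Each line was grown on collagen and given LN332 at 0.02 mg/mL or vehicle for 16 to 24 h, and RNA was sequenced from 4 replicates of each of the 4 groups.

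The 16 libraries held between 21735708 and 29338370 counts. The labels do not say that replicates were separate cultures, so p-values measure the spread between these samples only. The closest replicates of a group still differed by 5.45 times the sampling noise (chi-square per degree of freedom). The mouse *Itga3* row did not tell the lines apart. With vehicle it had 259 ± 42.4 CPM (SD, n = 4; reads scaled to library size) in the MKα3- line and 277 ± 46.8 CPM (SD, n = 4) in the MKα3+ line, and the restored α3 is human. The lines stood apart on the first principal component, which held 56.2% of the variance. The 7 keratinocyte markers, among them the basal keratins *Krt5* and *Krt14*, were measured in every library and summed to at least 7849 CPM. This sum does not show that each marker was alike in the lines. From the MKα3- to the MKα3+ vehicle group, mean *Krt15* went from 6.10 ± 4.23 to 0.793 ± 0.294 CPM (SD, n = 4 each). *Trp63* went from 123 ± 31.0 to 76.6 ± 16.6 CPM (SD, n = 4 each). Only *Krt14* had the higher mean after α3 was restored, at 5802 against 4231 CPM. Since each line is a single line and its partner was made from it, a difference between them cannot be told apart from one between cell populations that were grown separately. In bulk RNA, fewer cells that express a gene and less RNA per cell cannot be told apart either.

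p75NTR binds all mature neurotrophins with similar affinity, and with sortilin it forms a receptor for the uncleaved proneurotrophins. Trk receptor tyrosine kinases bind mature neurotrophins selectively and signal through adaptor proteins, while p75NTR has no kinase and signals through proteins that bind its intracellular domain. Sortilin belongs to the VPS10P-domain receptors, and it also sorts cargo between the Golgi, the cell surface and endosomes. In skin, p75NTR is known from nerve endings, hair follicles and some basal keratinocytes, and neurotrophins made by keratinocytes act on sensory nerves and on keratinocytes themselves.

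*Ngfr* (Entrez 18053) lies on the minus strand of chromosome 11, at 95568818 to 95587735 in mm10. It has 6 exon blocks and no exon that overlaps another gene, and it sits 492.0 kb from *Itga3*, the α3 gene. Its promoter is shown because it is the sequence nearest the start of a gene whose transcript differed between the lines. The RefSeq window on GRCm38.p6, minus strand, chr11:95587649-95587948, runs from 250 bases before the start to 50 bases after it, with GC boxes (GGGCGG, on either strand) in capitals.

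Ngfr promoter: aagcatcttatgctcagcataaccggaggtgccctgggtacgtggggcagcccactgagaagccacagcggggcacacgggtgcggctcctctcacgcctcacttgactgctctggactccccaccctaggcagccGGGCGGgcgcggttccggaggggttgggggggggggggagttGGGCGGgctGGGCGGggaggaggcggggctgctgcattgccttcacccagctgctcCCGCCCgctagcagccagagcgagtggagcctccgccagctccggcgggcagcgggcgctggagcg

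This window was 71.7% G and C, against a median of 52.7% over 32851 mouse promoters of the same length, and it held 23 CpG pairs against a median of 7.0. The GC box occurred 4 times, and no match overlapped another. At least 1 GC box was held by 35.7% of all promoters, and as many as 4 by 5.49%. The letters searched for TEAD factors (GGAATG, in 14.7% of all promoters), for AP-1 (TGANTCA, in 7.81%) and for the E-box (CACGTG, in 7.15%) did not occur on either strand. A match is a description of the letters and not a site of binding.

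*Ngfr* was a scarce transcript in these keratinocytes, and it was scarcest where α3 had been restored. In vehicle-treated MKα3- cells the 4 replicates had 56, 93, 62 and 84 counts, or 1.97, 3.15, 2.20 and 2.90 CPM, with a mean of 2.55 ± 0.564 CPM (SD, n = 4). In LN332-treated MKα3- cells they had 47, 42, 46 and 22 counts, or 1.82, 1.48, 1.65 and 1.08 CPM, with a mean of 1.51 ± 0.320 CPM (SD, n = 4). All 4 LN332-treated libraries of this line lay below all 4 vehicle-treated ones. In vehicle-treated MKα3+ cells there were 12, 24, 25 and 20 counts, or 0.437, 0.962, 0.979 and 0.720 CPM, with a mean of 0.774 ± 0.255 CPM (SD, n = 4). In LN332-treated MKα3+ cells there were 15, 9, 13 and 10 counts, or 0.602, 0.365, 0.506 and 0.375 CPM, with a mean of 0.462 ± 0.113 CPM (SD, n = 4). The highest of the 8 MKα3+ libraries, at 0.979 CPM, lay below the lowest of the 8 MKα3- libraries, at 1.08 CPM. The order of the levels was therefore vehicle-treated MKα3- cells, LN332-treated MKα3- cells and then the MKα3+ groups, whose libraries overlapped each other.

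The observed spread of *Ngfr* between replicates was above that from counting alone in 3 of the 4 groups, but 4 libraries give this spread only roughly. The coefficient of variation between replicates was 22.1% against 11.7% from counting in vehicle-treated MKα3- cells, 21.2% against 16.1% in LN332-treated MKα3- cells, and 32.9% against 22.3% in vehicle-treated MKα3+ cells. In LN332-treated MKα3+ cells it was 24.6%, where counting alone would give 29.2%, so the 47 counts of that group do not resolve differences between its replicates. Of all genes in the table, 20.8% had a lower mean CPM than *Ngfr* in vehicle-treated MKα3- cells, and 2.25% in LN332-treated MKα3+ cells. By library size alone, without the TMM scaling of the levels above, *Ngfr* was over 0.5 CPM in 12 libraries, among them all 8 of MKα3- cells. The MKα3- libraries would have been enough for the table's filter. The rest were MKα3+ libraries, which also met the methods' minimum of 3 libraries, though not the 6 that every gene of the table reached.

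**Figure D1:**
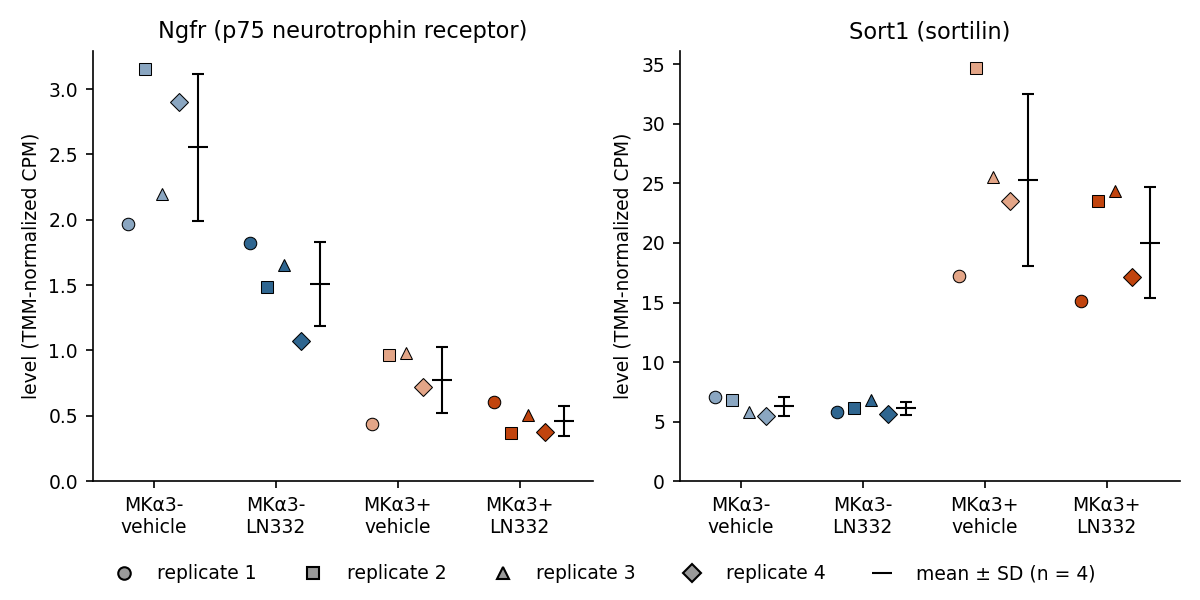
Levels of *Ngfr* (left) and *Sort1* (right) in CPM, with edgeR's TMM scaling, in each of the 4 groups, with 1 point per library and the mean ± SD (n = 4) beside it; each vertical axis starts at 0. *Ngfr* ran from 3.15 CPM in an MKα3- library to 0.365 CPM in an MKα3+ library, while *Sort1* was between 5.46 and 7.09 CPM in all MKα3- libraries and between 15.1 and 34.7 CPM in all MKα3+ libraries.

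*Sort1* (Entrez 20661) lies on the plus strand of chromosome 3, at 108284082 to 108361511 in mm10, and has 20 exon blocks. Its exons share 338 bases with *Gm12523* on the opposite strand, and the strand setting of the counting was not given in the sources used here, so a part of its reads is uncertain. *Sort1* moved the other way from *Ngfr*, and was higher where α3 had been restored. In vehicle-treated MKα3- cells the replicates had 202, 200, 164 and 158 counts, or 7.09, 6.78, 5.81 and 5.46 CPM, with a mean of 6.28 ± 0.775 CPM (SD, n = 4). In LN332-treated MKα3- cells they had 149, 175, 191 and 116 counts, or 5.78, 6.18, 6.86 and 5.67 CPM, with a mean of 6.12 ± 0.536 CPM (SD, n = 4). These groups overlapped.

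In vehicle-treated MKα3+ cells *Sort1* had 474, 865, 653 and 654 counts, or 17.2, 34.7, 25.6 and 23.5 CPM, with a mean of 25.3 ± 7.21 CPM (SD, n = 4). In LN332-treated MKα3+ cells it had 376, 580, 627 and 457 counts, or 15.1, 23.5, 24.4 and 17.1 CPM, with a mean of 20.04 ± 4.63 CPM (SD, n = 4). Every MKα3+ library lay above every MKα3- library, and within each line the LN332 and vehicle groups overlapped. The MKα3+ replicates varied more than counting allows, with coefficients of variation of 28.6% in vehicle and 23.1% in LN332 against 3.89% and 4.43% from counting alone. *Sort1* was over 0.5 CPM in all 16 libraries, with 28.7% of all genes below it in vehicle-treated MKα3- cells and 47.6% in vehicle-treated MKα3+ cells.

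The comparison of MKα3+ with MKα3- cells asks which transcripts differed between the lines, and it cannot tell α3 apart from other differences between them. In vehicle, *Ngfr* was 3.37-fold lower in MKα3+ cells (log2 fold change -1.75, SE 0.29, 95% interval -2.36 to -1.15) and *Sort1* was 3.90-fold higher (log2 fold change 1.96, SE 0.22, 95% interval 1.497 to 2.43). Among all genes tested, 18.5% were past the threshold of limma-voom, an adjusted p under 0.05 with an absolute log2 fold change over 0.5. MKα3+ cells were higher for 10.9% of genes and lower for 7.56%. The groups did not overlap for either receptor, as for 32.9% of all genes (17.2% with MKα3+ higher and 15.7% with it lower).

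In LN332 the receptors stood apart in the same directions. *Ngfr* was 3.23-fold lower in MKα3+ cells (log2 fold change -1.69, SE 0.35, 95% interval -2.42 to -0.96) and *Sort1* was 3.19-fold higher (log2 fold change 1.67, SE 0.23, 95% interval 1.18 to 2.17). Here 20.6% of all genes were past the threshold, 11.7% as higher and 8.92% as lower. The groups again did not overlap, as for 26.5% of all genes, 13.6% with MKα3+ higher and 12.9% with it lower. Since the genes were chosen from these contrasts, nothing is read from their place among all genes.

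LN332 against vehicle asks which transcripts respond to the added protein. *Ngfr* had lower mean levels with LN332 in both lines. In MKα3- cells its log2 fold change was -0.73 (SE 0.25, 95% interval -1.25 to -0.21), which was not past the threshold. The groups did not overlap there, as for 4.95% of all genes, 2.66% with LN332 lower. In MKα3+ cells it was -0.67 (SE 0.38, 95% interval -1.47 to 0.12), also not past the threshold. Neither interval takes account of pairs by replicate number. In MKα3+ cells LN332 was the lower library in 3 of 4 pairs of the same replicate number. The exception was replicate 1, with 0.437 CPM in vehicle and 0.602 CPM in LN332.

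*Sort1* was not past the threshold with LN332 in either line. Its log2 fold change was -0.03 (SE 0.27, 95% interval -0.59 to 0.54) in MKα3- cells. In MKα3+ cells it was -0.31 (SE 0.18, 95% interval -0.69 to 0.06, again without account of the pairs). LN332 was the lower library there in 4 of 4 pairs of the same replicate number. Among all genes, 0.187% were past the threshold in MKα3+ cells and 0.304% in MKα3- cells. A fit blocked on the replicate number called 218 genes in MKα3+ cells, against 27 without the block. In MKα3- cells it called 259 genes, against 44.

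The difference between the LN332 responses of the lines was 0.06 (SE 0.45, 95% interval -0.89 to 1.01) for *Ngfr* and -0.29 (SE 0.32, 95% interval -0.96 to 0.39) for *Sort1* on the log2 scale. Both intervals are wide and hold values on either side of 0, so whether the responses differed was not resolved for either receptor. Of all genes, 0% passed the threshold for this difference with limma-voom, 164 genes had an unadjusted p under 0.05, and edgeR and DESeq2 called 0 genes each, with 168 and 207 genes at an unadjusted p under 0.05.

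**Figure D2:**
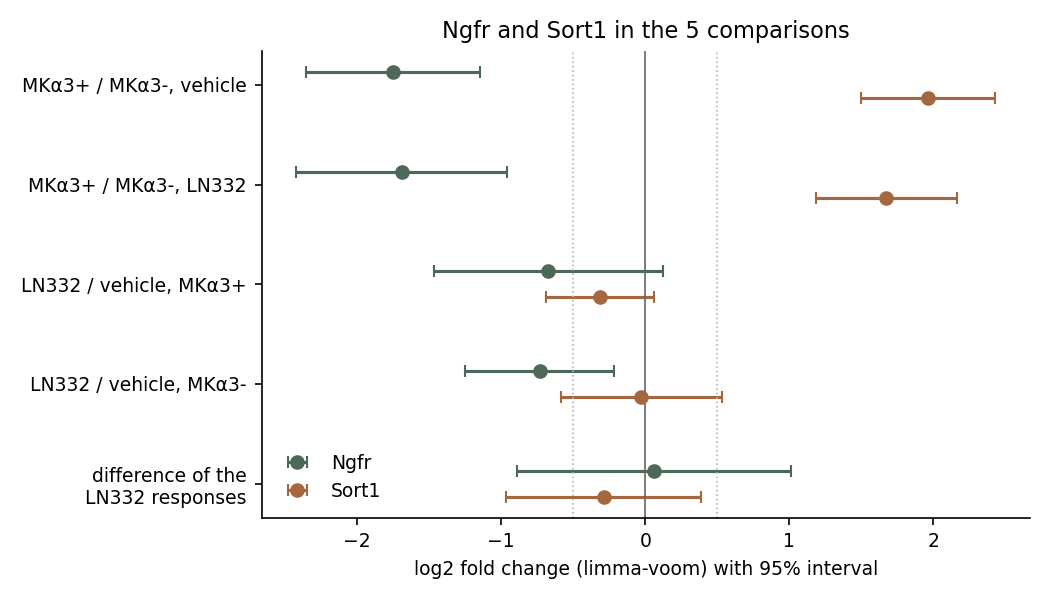
Log2 fold changes of *Ngfr* and *Sort1* from limma-voom with their 95% intervals in the 5 comparisons; dotted lines mark the minimum fold change of 0.5 in each direction. Both comparisons between the lines put *Ngfr* below and *Sort1* above 0. For LN332 in MKα3- cells the interval of *Ngfr* ran from -1.25 to -0.21, and that response was not past the threshold of limma-voom. Both genes were chosen from the levels in these groups, so the intervals are a description and not a test. They are not adjusted for the number of genes.

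The opposite moves changed the proportion of the receptor transcripts. In vehicle-treated MKα3- cells there were 2.57 ± 0.760 *Sort1* reads per *Ngfr* read (SD, n = 4), between 1.88 and 3.61 in the 4 libraries. In LN332-treated MKα3- cells there were 4.19 ± 0.859 (SD, n = 4), between 3.17 and 5.27. In MKα3+ cells the ratio was 33.6 ± 5.70 with vehicle and 45.9 ± 16.2 with LN332 (SD, n = 4 each). The lowest MKα3+ library, at 25.1, stood far above the highest MKα3- library, at 5.27, and the groups within a line overlapped.

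Per kilobase of exon, which allows levels of different genes to be compared, the receptors were alike in vehicle-treated MKα3- cells. *Ngfr*, with 3.446 kb of exon, had 0.741 ± 0.164 CPM per kb, and *Sort1*, with 7.569 kb, had 0.830 ± 0.102 CPM per kb (SD, n = 4 each), and their libraries overlapped. In vehicle-treated MKα3+ cells *Ngfr* had 0.225 CPM per kb, between 0.127 and 0.284, and *Sort1* had 3.34 CPM per kb, between 2.28 and 4.58. *Sorl1*, which encodes the sortilin-related receptor of the same VPS10P family, was more abundant than *Sort1* in every group, with 9.20 CPM per kb in vehicle-treated MKα3- cells and 6.27 in vehicle-treated MKα3+ cells. The neurotrophin gene *Ntf5* (neurotrophin-4) had 6.10 and 5.99 CPM per kb in these groups, and *Bdnf* (brain-derived neurotrophic factor) had 0.164 and 0.0913.

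**Figure D3:**
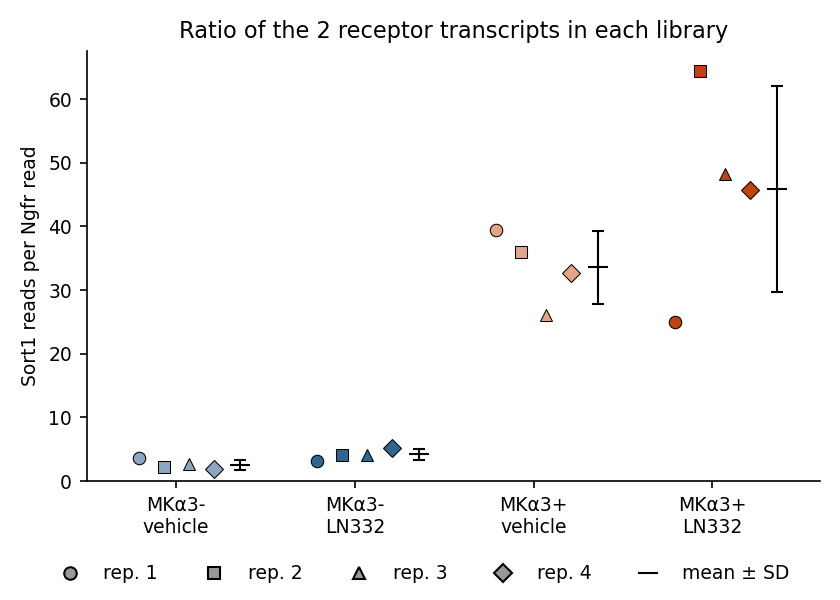
*Sort1* reads per *Ngfr* read in each library (vertical axis, from 0), by group, with the mean ± SD (n = 4) beside the points. The 8 MKα3- libraries lay between 1.88 and 5.27, and the 8 MKα3+ libraries lay between 25.1 and 64.4.

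Over the 16 libraries, the log2 CPM of *Ngfr* and *Sort1* had a Pearson r of -0.768. The libraries fall into the cell lines, so this value describes the difference between the lines, and after the group means were taken away the r was 0.341. Of 11644 genes whose mean log2 CPM was 1 or more, those most like *Ngfr* were *Dqx1* (r = 0.957), *Tert*, the catalytic subunit of telomerase (0.945), *Ephb6*, a kinase-defective Eph receptor (0.943), the Mediator subunit *Med24* (0.942) and *Fignl2* (0.940). Those most opposite were *Mal2*, a protein of apical membrane transport (-0.957), the keratin *Krt80* (-0.947) and *Dbn1*, the actin-binding protein drebrin (-0.940). Those most like *Sort1* were *Rftn1*, a lipid raft protein (0.973), the galactokinase *Galk1* (0.971), *Npnt*, a matrix ligand of integrin α8β1 (0.969), *Itpripl1* (0.969) and *Golm2* (0.969), and those most opposite were the transcription factor *Sox21* (-0.976), the sugar transporter *Slc50a1* (-0.975) and *Hemk1* (-0.975). Of these 16 genes, all except *Med24* were past the threshold between the lines in vehicle, so the likeness is over libraries that share the split by line.

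Other genes of neurotrophin and sortilin biology were compared between the lines too, and their shares past the threshold are given as a description. Of 69 such genes in 8 lists, 58 were measured. The neurotrophin ligand *Ntf3* was among those not analysed here. In vehicle, 5 of the 58 were higher and 2 were lower in MKα3+ cells, or 12.1% against 18.5% of all genes, with a median log2 fold change of 0.03 against 0.01 over all genes. In LN332, 6 were higher and 3 lower, or 15.5% against 20.6% of all genes, with a median of 0.06 against 0.01.

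Among ligands and receptors, 0 of the 2 neurotrophin genes passed in either comparison. *Ntf5* averaged 16.2 ± 1.39 CPM with vehicle in MKα3- cells (SD, n = 4), and between the lines it differed by -0.02 on the log2 scale (SE 0.11, adjusted p = 0.90, limma-voom). *Bdnf*, at about 1 CPM or less, had -0.74 (SE 0.37, adjusted p = 0.153). Of the other VPS10P receptors, *Sorl1* fell from 104 ± 7.22 to 71.0 ± 6.36 CPM (SD, n = 4 each) in vehicle (log2 fold change -0.56, SE 0.18, adjusted p = 0.0256), and it fell in LN332 too (-0.57, SE 0.18, adjusted p = 0.0222). *Sorcs2*, which can also pair with p75NTR, had 0.41 (SE 0.24, adjusted p = 0.218). *Sorl1* shares exon bases with the antisense gene *Gm16214*. Its call in vehicle was lost when any of vehicle-treated MKα3- replicates 3 and 4 or MKα3+ replicates 1 and 3 was left out (adjusted p up to 0.0666), and in LN332 its value was -0.32, under the minimum fold, without MKα3- replicate 3, whose 124 CPM was the highest of its group.

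Of the 13 partners that bind p75NTR or carry its signals, 1 rose in vehicle. This was *Ripk2*, a kinase that binds the death domain of p75NTR, from 47.0 ± 9.28 to 70.8 ± 11.1 CPM (SD, n = 4 each; log2 fold change 0.60, SE 0.16, adjusted p = 0.0104, limma-voom), while in LN332 it had 0.38 (adjusted p = 0.0788). *Zfp110*, also known as NRIF, a zinc finger protein that binds p75NTR, passed in LN332 alone with 0.62 (adjusted p = 1.59e-04), and in vehicle it had 0.50 with an adjusted p of 7.03e-04. It was just under the minimum fold there, and it passed when any of 4 vehicle libraries was left out. The most abundant partners that did not pass, *Arhgdia*, a GDP dissociation inhibitor that p75NTR binds, and the scaffold *Sqstm1*, had 0.07 and 0.14 in vehicle. None of the 9 genes of p75NTR and sortilin cleavage passed in either comparison. The metalloprotease *Adam10* had 0.11 and the γ-secretase subunit *Ncstn* had -0.21 in vehicle.

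Of the 7 genes that cleave proneurotrophins or control those proteases, *Plat* and *Serpini1* rose in vehicle. *Plat*, tissue plasminogen activator, went from 13.1 ± 4.70 to 22.6 ± 4.31 CPM (SD, n = 4 each; log2 fold change 0.83, SE 0.26, adjusted p = 0.0223, limma-voom), and its inhibitor *Serpini1*, neuroserpin, from 1.38 ± 0.531 to 2.74 ± 0.631 CPM (1.05, SE 0.31, adjusted p = 0.0184). The *Plat* groups overlapped, and its call was lost without any of vehicle-treated MKα3- replicates 2 and 4 or MKα3+ replicates 1 and 2 (adjusted p up to 0.0735). *Serpini1* lost its call without vehicle-treated MKα3- replicate 3 (adjusted p = 0.0748). In LN332 *Serpini1* rose again (1.06, SE 0.34, adjusted p = 0.0242), a call lost without MKα3- replicate 3 or 4 or MKα3+ replicate 2. *Plat* had 0.75 in LN332 (SE 0.28, adjusted p = 0.0508) and was called there in 7 of 22 alternatives, among them the block (0.71, adjusted p = 8.41e-04) and DESeq2 (0.69, adjusted p = 0.0446). In LN332 the gelatinase *Mmp9* rose from 5.02 ± 3.41 to 15.4 ± 7.21 CPM (1.81, SE 0.47, adjusted p = 0.00692). *Furin* and *Pcsk7*, the proprotein convertases, had -0.09 and -0.14 in vehicle and did not pass.

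Among the 10 Trk adaptors, *Gab1*, a docking protein of receptor tyrosine kinases, rose from 21.1 ± 0.99 to 31.6 ± 3.49 CPM in vehicle (SD, n = 4 each; log2 fold change 0.58, SE 0.11, adjusted p = 8.42e-04, limma-voom) and in LN332 (0.78, SE 0.11, adjusted p = 5.57e-05). It shares exon bases with the antisense gene *Gm31105*. The adaptor *Sh2b1* passed in LN332 alone (0.62, SE 0.09, adjusted p = 5.12e-05), while *Plcg1*, phospholipase C-γ1, and the exchange factor *Rapgef1* had -0.06 and -0.19 in vehicle and did not pass. Of the 9 genes of sortilin trafficking, 0 passed in vehicle. The adaptor *Gga1* had an adjusted p of 0.00487 there but was under the minimum fold at -0.31, and the retromer core subunit *Vps35* had 0.06 (adjusted p = 0.698). The retromer subunit *Vps26a* fell in LN332 by 0.52 on the log2 scale (adjusted p = 1.63e-04), and was under the minimum fold without LN332-treated MKα3- or MKα3+ replicate 4.

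Of the 6 ligands and cargo proteins of sortilin, *Grn* fell and *Lpl* rose in vehicle. *Grn*, progranulin, which sortilin takes up for lysosomal delivery, fell from 507 ± 153 to 238 ± 15.4 CPM (SD, n = 4 each; log2 fold change -1.04, SE 0.24, adjusted p = 0.0034, limma-voom), and in LN332 by 0.97 on the log2 scale (SE 0.23, adjusted p = 0.00406). Its exons overlap those of *Fam171a2* on the opposite strand. *Lpl*, lipoprotein lipase, rose from 0.363 ± 0.157 to 2.29 ± 1.27 CPM in vehicle (2.51, SE 0.62, adjusted p = 0.00568) and had 1.40 (SE 0.58, adjusted p = 0.0763) in LN332. *Nts*, neurotensin, a peptide that binds sortilin, passed in LN332 alone, where MKα3- libraries averaged 0.383 ± 0.267 CPM and MKα3+ libraries 1.29 ± 0.424 CPM (SD, n = 4 each; 1.85, SE 0.44, adjusted p = 0.00384). *App* and *Psap*, with -0.18 and 0.10 in vehicle, did not pass. The genes that passed in LN332 alone, *Zfp110*, *Mmp9*, *Sh2b1*, *Vps26a* and *Nts*, were named after their values were seen. In vehicle *Mmp9* had 0.97 (SE 0.48, adjusted p = 0.141), and it was called there under the block (0.80, adjusted p = 0.0175) and sample quality weights (1.12, adjusted p = 0.0229). *Sh2b1* had 0.44 in vehicle, under the minimum fold, and 0.52 without MKα3- replicate 1, where it was called. Whether their differences were unlike in vehicle and LN332 is covered by the test of the LN332 responses, in which 0 of the 58 passed by limma-voom, with *Nts* alone at an unadjusted p under 0.05.

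**Figure D4:**
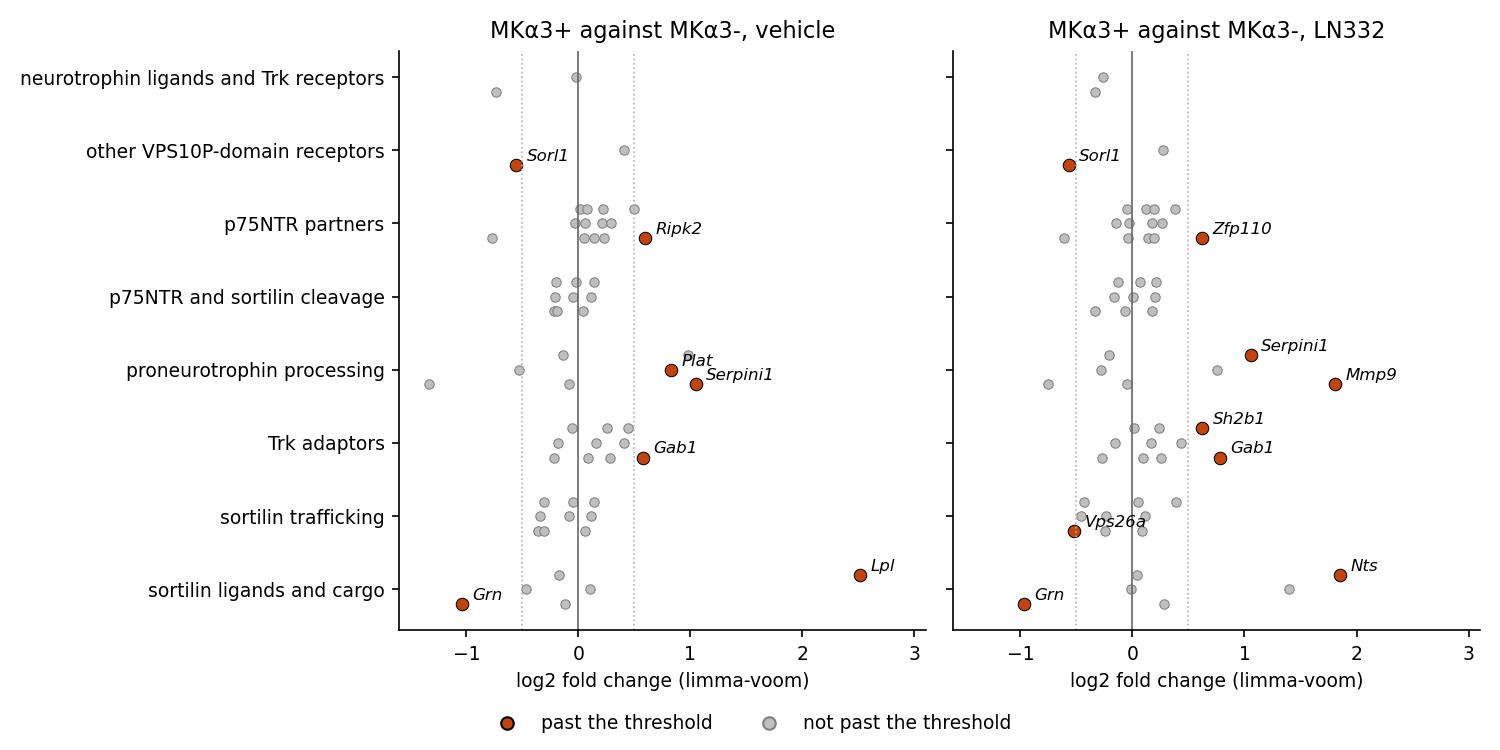
Log2 fold changes of the 58 measured pathway genes between the lines (horizontal axis, limma-voom), in vehicle (left) and in LN332 (right), 1 row of points per list; orange points with names are past the threshold, and dotted lines mark the minimum fold change of 0.5. In vehicle 7 and in LN332 9 of the 58 points are past the threshold, and *Grn*, *Sorl1*, *Gab1* and *Serpini1* are past the threshold in both panels.

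With LN332 against vehicle, 0 of the 58 genes passed in either line by limma-voom, edgeR or DESeq2, against 0.187% of all genes in MKα3+ and 0.304% in MKα3- cells. At an unadjusted p under 0.05 by limma-voom there were 4 in MKα3+ and 11 in MKα3- cells. The median log2 fold changes were -0.02 and -0.08. In MKα3+ cells, where replicates of the same number deviated together, a fit blocked on that number called 2 of the 58, *Mmp9* (0.82, SE 0.22, adjusted p = 0.0495) and *Nts* (2.002, SE 0.37, adjusted p = 0.0105). *Nts* had 0.319 ± 0.146 CPM in vehicle-treated and 1.29 ± 0.424 CPM in LN332-treated MKα3+ cells (SD, n = 4 each), groups that did not overlap, as for 9.66% of all genes, with an adjusted p of 0.0753 without the block. *Sorl1* had -0.51 (SE 0.18, adjusted p = 0.309) in MKα3+ cells, again with no overlap. It was called there with sample quality weights (-0.52, adjusted p = 0.00511) and with only the compared groups in the fit (-0.51, adjusted p = 0.0212).

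p75NTR and sortilin are also expressed by cells other than keratinocytes, so markers of these were read beside them. Of 6 melanocyte markers, *Pmel* and *Mitf* were in the table and summed to between 4.70 and 10.6 CPM in all libraries. *Pmel* was lower in MKα3+ cells in vehicle by 1.26 on the log2 scale (adjusted p = 5.89e-04, limma-voom), while *Mitf* had 0.29 (adjusted p = 0.372). In LN332 they had -0.93 (adjusted p = 0.0076) and 0.15 (adjusted p = 0.699). The 3 fibroblast markers of 6 that were in the table summed to between 8.56 and 26.9 CPM and the 3 endothelial markers of 3 to between 3.16 and 5.77 CPM. The 3 immune markers of 4, *Ptprc*, *Lyz2* and *Cd74*, summed to between 40.4 and 83.8 CPM in MKα3- and between 69.9 and 305 CPM in MKα3+ libraries, with *Lyz2* at 3.06 (adjusted p = 0.0469) in vehicle. The part of these cells in the levels of *Ngfr* and *Sort1* was not tested.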

How the data were processed

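RNA from MKα3- and MKα3+ keratinocytes treated with LN332 or vehicle was sequenced in 16 libraries. Per the methods, the authors aligned reads to mm10 with Rsubread, and featureCounts summed them over its Entrez gene models. They deposited raw counts of 14474 genes, 284 of them without a symbol, every gene over 0.5 CPM in at least 6 libraries. The methods' filter (over 0.5 CPM in at least 3 libraries) removed 0 genes. Demultiplexing used bcl2fastq 2.20, per the submitters' processing notes.

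From the counts, TMM factors (edgeR 4.0.16), voom weights and empirical Bayes statistics (limma 3.58.1, R 4.3.3) were computed in a single fit of all libraries with a coefficient per group. Adjusted p-values are by Benjamini-Hochberg over all genes, and the minimum absolute log2 fold change was 0.5. For scarce genes, counting error adds to the spread between replicates. Gene positions, exons and overlaps were read from GENCODE on GRCm38 (mm10), and promoters and neighbouring genes from RefSeq on GRCm38.p6, where *Ngfr* matched a promoter. The procedure was tested on simulated data.

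The members and the lists were chosen with earlier results of these data known. Named genes are *Itga3*, up to 4 genes of each list past the threshold in vehicle with the largest change, the 2 most abundant of the rest, any past it with LN332, and the 5 genes most like and 3 most opposite to each member. A gene of the family is not reported here. Replicate numbers come from the labels. Deviations of libraries with the same number correlated at over 0.1 in 18 of 24 pairs (mean 0.255). For LN332 against vehicle in MKα3+ cells this held in 4 of 4 pairs, so the numbers were taken to pair samples there. In each of the other comparisons it held in 3 of 4 pairs, and the main reading took them as unpaired. Pairing in those is not excluded. Among libraries of other groups, 13 of 16 correlated best with one of their own number. Each library was left out in turn, and the fit was repeated with DESeq2 1.42.0, with edgeR's quasi-likelihood model, with other scaling and count filters, with sample quality weights, with the replicate block, on the compared groups alone and without a minimum fold.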

Additional observations from a re-analysis of the deposited data

How the results depend on the processing

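Over the alternatives that gave a value, *Ngfr* ranged from -1.88 to -1.50 between the lines in vehicle and from -1.82 to -1.598 in LN332, and *Sort1* from 1.80 to 2.13 and from 1.56 to 1.80. Since both were chosen for this difference, these ranges are a description. With sample quality weights, the LN332 response of *Ngfr* in MKα3+ cells was -0.92 and past the threshold (-0.67 and not past it without weights), *Sort1* in MKα3- cells turned from -0.03 to 0.028, the *Ngfr* difference between lines turned from 0.06 to -0.17, and 2 pathway genes passed in MKα3+ cells (*Sorl1* and *Nts*). Leaving out 1 library gave *Sort1* in MKα3- cells -0.092 to 0.034, the *Ngfr* difference -0.19 to 0.19, and 0 to 1 pathway genes in each line. The replicate block called 11 pathway genes in vehicle, against 7, and 2 for LN332 in MKα3+ cells, against 0. It moved neither *Ngfr* nor *Sort1* across the threshold. With only the groups compared in the fit, 1 pathway gene, *Sorl1*, passed for LN332 in MKα3+ cells. Without a minimum fold, 16 passed in vehicle and 17 in LN332. Over all genes, 4115 were called in vehicle and 4654 in LN332 without it, against 2676 and 2987, and LN332 called 27 genes in MKα3+ cells, 0 to 454 over the alternatives, and 44 in MKα3- cells, 1 to 259. The cause of these changes was not tested. A minimum of 10 counts in every library left out *Ngfr*, whose lowest count was 9, and DESeq2 gave no adjusted p for it with LN332 in MKα3- cells.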

Other observations

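The genes within 1 Mb of each receptor were looked at after the values were seen. Around *Ngfr*, 40 genes were measured, and in vehicle 1 was higher and 7 were lower in MKα3+ cells, or 20% against 18.5% of all genes, with a median log2 fold change of -0.10. The lower ones were *Pdk2*, a pyruvate dehydrogenase kinase (-1.26), the homeobox genes *Dlx3* (-0.68), *Hoxb7*, *Hoxb5* and *Hoxb3*, *Fam117a* (-1.85) and *Nxph3* (-1.12), and the higher one was *Hoxb9* (0.87). Around *Sort1*, 34 genes were measured, of which 5 were higher and 3 lower, or 23.5% against 18.5% of all genes, with a median of 0.16. Both shares lay near that of all genes. *Slc6a17*, a transporter of neutral amino acids (5.06), and *Csf1*, the macrophage growth factor (1.54), were among the higher ones. Only the measured genes up to 29.3 kb from *Sort1* are described next, and they did not rise with it. *Psma5* had -0.27 at 4.0 kb and was not past the threshold, *Psrc1* had -1.23 at 22.3 kb and the cadherin *Celsr2* had -1.57 at 29.3 kb. With LN332 against vehicle, 0 of these neighbours passed the threshold in either line by limma-voom.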
